A study of Homo sapiens with 36 samples.

Results

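The CXC chemokines CXCL1, CXCL2, CXCL3, CXCL5, CXCL8, CXCL10, CXCL11 and CXCL16 were examined in THP-1 cells, an established human monocytic leukaemia line, by RNA sequencing. The 8 genes were taken by symbol from the 57500 genes counted. The cells carried 1 of 3 stable short hairpin RNAs delivered by lentiviral particles: a non-target control (shNT), or a hairpin against NR4A2 (shNR4A2) or NR4A3 (shNR4A3), nuclear receptors that regulate transcription. Each line was kept for 4 h at 5% or 10% CO2 in buffered medium equilibrated beforehand, the higher level modelling hypercapnia, with or without lipopolysaccharide (LPS, a bacterial cell wall component) at 2.5 µg/mL for the last 2 h. The 12 conditions had 3 replicates each, 36 polyA-selected libraries in all, and every condition, shNT included, carried a stably introduced hairpin. The model is a leukaemic cell line with knockdown and not deletion of the targets, and the study describes the 3 replicates as individual experiments, whereas the labels give only their numbers and not which culture or day each came from.

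CXC chemokines are small proteins that guide leukocytes along a gradient by binding receptors on the cell surface. CXCL1, CXCL2, CXCL3, CXCL5 and CXCL8 attract neutrophils through CXCR2, and CXCL8 also binds CXCR1. CXCL10 and CXCL11 are known as interferon-inducible ligands of CXCR3, a receptor of activated T cells, whereas CXCL16 is made as a membrane-anchored protein that is shed by proteases and binds CXCR6. In monocytes LPS is sensed by TLR4, which activates the NF-kB and interferon regulatory factor families of transcription factors, and many CXC genes carry sites for NF-kB in their promoters.

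In the GRCh38 coordinates of the count files the neutrophil-attracting members lie together on the long arm of chromosome 4, with CXCL1 (ENSG00000163739) at chr4:73869393-73871242 on the plus strand, CXCL2 (ENSG00000081041) at chr4:74097035-74099293 on the minus strand, CXCL3 (ENSG00000163734) at chr4:74036589-74038807 on the minus strand, CXCL5 (ENSG00000163735) at chr4:73995642-73998779 on the minus strand and CXCL8 (ENSG00000169429) at chr4:73740506-73743716 on the plus strand. The CXCR3 ligands lie further along the same chromosome, with CXCL10 (ENSG00000169245) at chr4:76021117-76023497 on the minus strand and CXCL11 (ENSG00000169248) at chr4:76033682-76041415 on the minus strand, and CXCL16 (ENSG00000161921) at chr17:4733526-4739922 on the minus strand lies on chromosome 17. Counts were summed over the exons of each gene.

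Promoter stretches are shown because they carry the sequence that the LPS-responsive members share. CXCL5, which had 0 to 3 counts in each library with or without LPS, carries it as well. All 7 members with an entry among the RefSeq promoters (GRCh38.p14) held a match to the kappaB consensus, the NF-kB site, in the 250 bases before the start, against 10.14% of 35116 promoters; CXCL16 had no entry. The consensus was searched by name together with the letters GGAATTTCC on both strands, so the overlapping matches at a palindromic site are 1 site. CXCL8 matched only these added letters and not the longer consensus, so its place among the 7 rests on their inclusion. The share of all promoters was counted with the same letters. The stretches below read 5′ to 3′ along the gene, and capitals mark the kappaB matches and, as the first capitals in CXCL10, the core GAAANNGAA of the interferon-stimulated element.
CXCL1: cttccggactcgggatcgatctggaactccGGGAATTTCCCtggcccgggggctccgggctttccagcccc
CXCL2: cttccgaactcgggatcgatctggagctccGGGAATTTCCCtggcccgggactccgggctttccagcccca
CXCL3: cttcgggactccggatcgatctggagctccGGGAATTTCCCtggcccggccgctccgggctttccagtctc
CXCL5: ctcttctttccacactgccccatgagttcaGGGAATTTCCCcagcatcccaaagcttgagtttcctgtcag
CXCL8: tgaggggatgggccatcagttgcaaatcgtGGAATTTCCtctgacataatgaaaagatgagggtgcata
CXCL10: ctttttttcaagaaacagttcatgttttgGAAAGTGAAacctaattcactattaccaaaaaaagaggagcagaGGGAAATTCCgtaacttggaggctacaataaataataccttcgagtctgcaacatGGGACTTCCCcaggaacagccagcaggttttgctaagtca
CXCL11: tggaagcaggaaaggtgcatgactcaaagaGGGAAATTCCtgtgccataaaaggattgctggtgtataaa
They lie at chr4:73869284-73869354 (plus strand) for CXCL1, chr4:74099233-74099303 (minus strand) for CXCL2, chr4:74038728-74038798 (minus strand) for CXCL3, chr4:73998728-73998798 (minus strand) for CXCL5, chr4:73740448-73740516 (plus strand) for CXCL8, chr4:76023580-76023747 (minus strand) for CXCL10 and chr4:76036107-76036176 (minus strand) for CXCL11. The sites began 79 bases before the RefSeq start in CXCL1 and CXCL3, 78 in CXCL2, 91 in CXCL5 and CXCL8, 76 in CXCL11, and 177 and 122 in CXCL10, which held a pair of them. The gene models in the count files start further upstream than RefSeq by 98 bases for CXCL2, 118 for CXCL3, 102 for CXCL5, 63 for CXCL8 and 5345 for CXCL11, so there the stretch lies wholly or partly inside the counted gene.

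Aligned without gaps, the CXCL1 and CXCL3 stretches were identical at 64 of 71 bases (90.1%), CXCL1 and CXCL2 at 57 (80.3%) and CXCL2 and CXCL3 at 53 (74.6%), whereas CXCL5 matched these at 42.3% to 47.9%. The interferon-stimulated element core was found in the windows of CXCL2, CXCL3 and CXCL10, 3 of 7 members against 6.88% of all promoters. The AP-1 letters TGANTCA and the TATA box letters TATAAA were each found in CXCL8 and CXCL11, 2 of 7 against 6.57% and 10.72%. The letters AAAGGTCA, to which NR4A proteins bind as monomers (the NBRE), were in 0 of 7 windows and in 1.05% of all. A match is a description of letters and not of binding.

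The libraries held between 16171161 and 23929138 counts (median 19639071). A library's level of a gene is given as TPM, its count divided by the gene's length and scaled so that every library has the same sum, and between conditions as a log2 fold change with its standard error (SE) from edgeR's quasi-likelihood test, fitted to 17720 genes. A gene was called where the Benjamini-Hochberg adjusted p was under 0.05. Of the 8 members, 7 passed the filter on low counts. CXCL5, an epithelial-type neutrophil chemoattractant, had 0 to 3 counts in each library and was not tested.

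The targeted genes were checked first. NR4A2 was lower in shNR4A2 than in shNT by log2 fold changes of -0.91, -1.52, -1.02 and -1.67 at 5% CO2, 5% CO2 with LPS, 10% CO2 and 10% CO2 with LPS, all called. NR4A3 was lower in shNR4A3 by -2.47, -0.82 and -1.11 in the same order without the 10% CO2 basal condition, where it was -0.39 (adjusted p = 0.736) and not called. NR4A3 had 1 to 2214 counts over all libraries and rose with LPS by log2 fold changes of 5.44 to 7.61. Its values without LPS (-2.47 and -0.39) thus rest on far fewer counts and are poorly set. Monocyte markers were present, 8 of 8 with a median count of at least 10, whereas the T cell markers CD3D, CD3E, CD3G and CD2 stayed under 10 counts in every library. The summed TPM of the monocyte markers ranged from 362 to 568 in shNT, 775 to 1160 in shNR4A2 and 864 to 1536 in shNR4A3. The control and knockdown lines did not overlap in this sum, and its part in the knockdown comparisons below was not tested. In these bulk libraries fewer expressing cells and less RNA per cell cannot be told apart.

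CXCL8, the main neutrophil attractant of human monocytes, had the highest level of the members in all 12 conditions. Without LPS the 18 libraries ranged from 9.71 to 36.6 TPM (median 20.5), and with LPS from 3530.4 to 7006 TPM (median 4485). CXCL1 stood at 1.47 to 4.99 TPM without LPS and 478 to 1304 with it, and CXCL2 at 0.81 to 3.45 and 487 to 780.1. All LPS libraries therefore lay above all basal libraries for these genes. CXCL3 went from 0 to 1.03 TPM (0 to 11 counts) up to 162 to 316 TPM. CXCL10 went from 0.57 to 2.95 TPM (4 to 19 counts) up to 206 to 1185 TPM, and CXCL11 from 0 to 1.15 TPM (0 to 12 counts) up to 10.4 to 63.6 TPM. CXCL16 ranged from 1.36 to 3.40 TPM without and 1.00 to 2.52 TPM with LPS, and these ranges overlapped. The TPM of CXCL2 and CXCL3 rests on gene lengths of 1500 and 2219 bases that include introns kept in some transcripts.

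With LPS the order of mean TPM below CXCL8 was CXCL1, CXCL2, CXCL10, CXCL3, CXCL11, CXCL16 and CXCL5 at 5% CO2 in each line. At 10% CO2 CXCL10 stood above CXCL2 in each line, and in shNT above CXCL1 as well. There the CXCL10 range overlapped that of CXCL2 in shNT and shNR4A2 but not in shNR4A3, and that of CXCL1 in shNT. CXCL1 and CXCL2 overlapped at 5% CO2 with LPS in each line, as did CXCL2 and CXCL10, so that their order is within the spread. In basal cells only CXCL8 stood clear of its neighbour in every condition. CXCL1 came next, and CXCL2, CXCL10 and CXCL16 changed places from condition to condition, mostly with overlapping ranges.

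**Figure D1:**
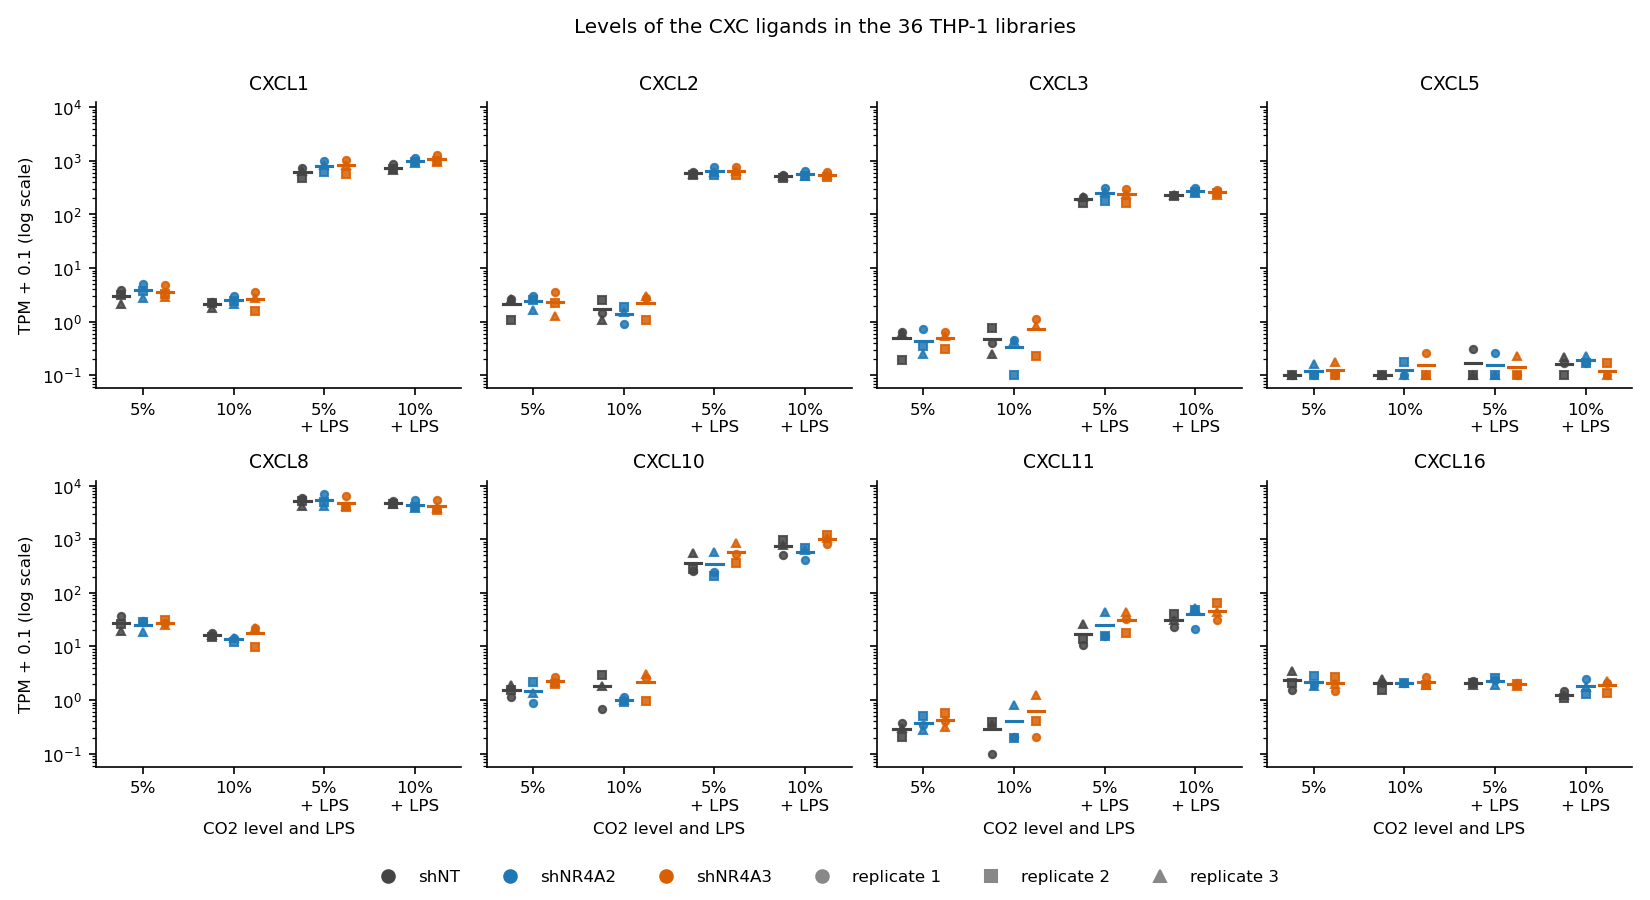
TPM plus 0.1 on a log axis for each member in the 36 libraries, by CO2 level and LPS, with lines in colour, replicate numbers as symbols and bars at the means of 3. With LPS CXCL8 lies between 3530.4 and 7006 TPM, CXCL16 does not separate the LPS from the basal libraries, and CXCL5 is near the floor throughout.

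LPS raised 6 of the 7 tested members, CXCL1, CXCL2, CXCL3, CXCL8, CXCL10 and CXCL11, in all 6 comparisons of line and CO2 level. CXCL16 was called in none. The share of all genes called higher was 11.2% in shNT at 5% CO2 and 15.1% at 10% CO2, 8.91% and 16.5% in shNR4A2, and 11.9% and 20.6% in shNR4A3. The median log2 fold change of the 7 was 7.92 in shNT at 5% CO2, where that of all genes was -0.0013, and 8.97 in shNR4A2 at 10% CO2, where that of all genes was -0.0074. Together the members took up a mean of 0.0012% to 0.0022% of a library's counts without LPS and 0.392% to 0.435% with it.

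CXCL8 in shNT at 5% CO2 stood at 36.6, 26.1 and 19.3 TPM without LPS and at 5932, 5139 and 4170.1 TPM with it, a log2 fold change of 7.75 (SE 0.33). In the other conditions its rise lay between 7.68 and 8.63, a fold of 205 to 395. CXCL1, a CXCR2 ligand like CXCL2, stood at 3.79, 3.05 and 2.06 TPM without LPS and at 738, 478 and 641 with it. Its log2 fold changes ran from 7.92 (SE 0.27) in shNT at 5% CO2 to 9.06 (SE 0.26) in shNR4A3 at 10% CO2. CXCL2 rose by 8.33 to 8.99, and CXCL3, the close relative of both, by 9.06 to 10.41, though from basal counts of 11 or fewer, so that its basal level and the size of the rise are poorly set.

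CXCL10 stood at 1.05, 1.42 and 1.78 TPM in shNT at 5% CO2 without LPS and at 256, 281 and 555 with it. Its log2 fold changes over the 6 comparisons were 8.24 to 9.55. CXCL11, the other CXCR3 ligand, rose by 6.55 to 7.63, with 114 to 688 counts in the LPS libraries. For both genes the basal and LPS libraries were far apart in every line. CXCL16 had log2 fold changes of -0.48 to 0.33, with adjusted p between 0.25 and 0.96, and its ranges overlapped in 5 of 6 comparisons. Its gene overlaps MED11 on the opposite strand (48 to 146 counts), and without strand in the counting, reads of the pair cannot be told apart.

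**Figure D2:**
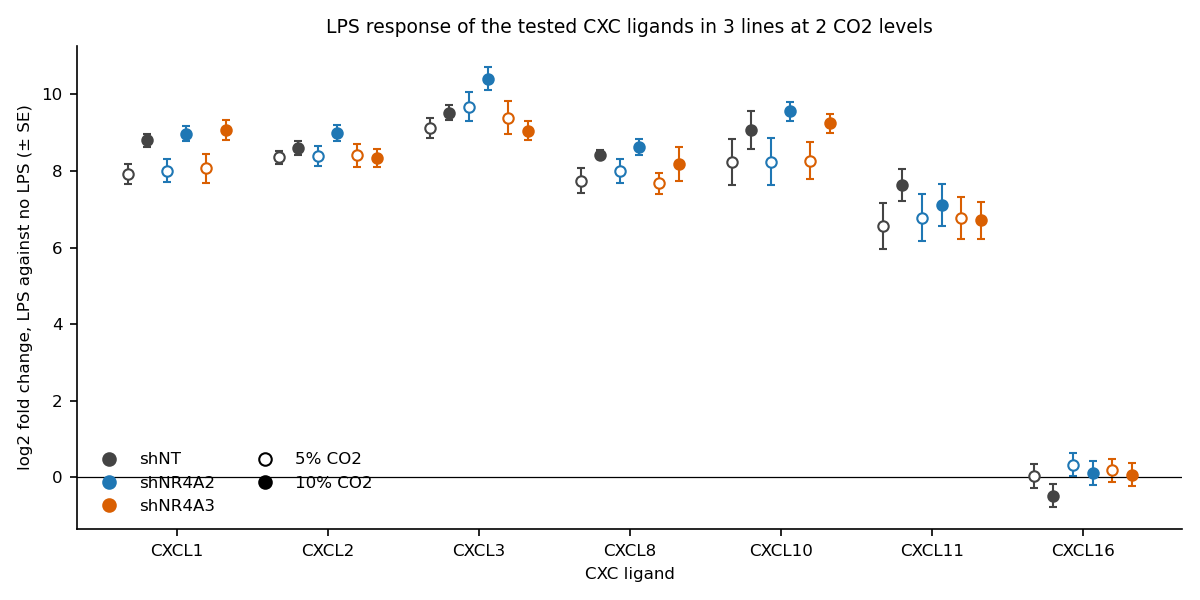
Log2 fold change with LPS (± SE, 3 libraries against 3) for the 7 tested members, with lines in colour and 5% and 10% CO2 as open and filled points. The values of 6 members lie between 6.55 and 10.41, and those of CXCL16 between -0.48 and 0.33.

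Among 9 other CXC ligands, 4 had enough counts to test and 3 were higher with LPS in all 6 comparisons: CXCL6, a CXCR2 ligand (log2 fold changes of 2.94 to 3.59), CXCL12, the ligand of CXCR4 (2.63 to 4.01), and CXCL9, the third interferon-type CXCR3 ligand, which reached 110 counts at most. CXCL13 was called in 2 comparisons at 14 counts or fewer. PF4, PF4V1, PPBP, CXCL14 and CXCL17 had at most 9 counts in a library. Of 8 receptors, 5 were tested. CXCR2, the receptor of the neutrophil-attracting members, was lower with LPS in all 6 comparisons (-2.58 to -1.53) and fell from a mean of 21.02 ± 2.76 to 5.63 ± 1.07 TPM (SD, n = 3) in shNT at 5% CO2. CXCR3 was lower in 3, the scavenging receptor ACKR3 was higher in 5 (1.58 to 2.56), and CXCR6, the CXCL16 receptor, was called in none. CXCR1, CXCR5 and ACKR1 had 8 counts or fewer.

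Of 8 NF-kB subunits and feedback genes, 7 were higher with LPS in all 6 comparisons, among them NFKBIZ, a nuclear co-activator (7.28 to 7.42), TNFAIP3, an inhibitor of the pathway (5.78 to 6.29), and NFKBIA (3.76 to 4.39). RELA was called in 4. Of 10 genes of the interferon axis, 4 were higher in all 6: the transcription factors IRF1 (0.45 to 1.16) and IRF7 (0.70 to 1.16), the interferon-stimulated gene IFIT2 (1.20 to 2.63), and IFNB1, interferon beta, which reached 20 counts at most. MX1 was called in 2. Among proteases that cut CXC ligands, ADAM17 was higher in all 6 (0.58 to 1.31), while ADAM10, which sheds CXCL16, had log2 fold changes of -0.11 to 0.09 and was called in none.

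The next comparison asked whether 10% CO2 changed the members against 5% CO2. Without LPS, CXCL8 stood lower at 10% CO2 in each line. In shNT it was 36.6, 26.1 and 19.3 TPM at 5% and 18.0, 15.2 and 16.2 TPM at 10% CO2, a log2 fold change of -0.65 (SE 0.20, adjusted p = 0.144). In shNR4A2 it was 29.98, 28.4 and 18.2 against 14.1, 12.1 and 14.1 TPM (-0.87, SE 0.20, adjusted p = 0.194). In shNR4A3 it was 27.7, 30.5 and 24.5 against 21.6, 9.71 and 21.9 TPM (-0.63, SE 0.28, adjusted p = 0.312). The 5% and 10% CO2 libraries did not overlap in any line, but edgeR called CXCL8 in none.

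Of the 7 tested members, 0 were called by edgeR in the basal CO2 comparison of any line. Over all genes it called 0.615% in shNT, 0.0113% in shNR4A2 and 1.13% in shNR4A3. At an unadjusted p under 0.05, 1 member, CXCL8, passed in shNT (background 14.9%) and in shNR4A2 (background 8.07%), and 0 in shNR4A3. DESeq2, which gave an adjusted p to CXCL8 alone, called it in shNR4A2 (adjusted p = 0.0246, background 0.111%) and 0 members in the others. The DESeq2 backgrounds here and below are shares of a wider gene set, 38911 here against 17720 for edgeR. That set is not limited to genes given an adjusted p. The DESeq2 shares thus understate the share among genes that could be called, and cannot be compared with those of edgeR. In shNR4A2, where same-numbered replicates deviated together, the fit with the replicate block called CXCL8 (-0.84, SE 0.16, adjusted p = 0.0203, background 2.04%). CXCL1 was -0.48 (SE 0.36), -0.59 (SE 0.35) and -0.50 (SE 0.38) in shNT, shNR4A2 and shNR4A3, with 13 to 42 counts per library (median 18.5). Median basal counts were lower for CXCL2 (14.0), CXCL10 (9.5), CXCL3 (4.5) and CXCL11 (3.0), and higher for CXCL16 (31.0). The ranges of CXCL2 (6 to 29 counts) and CXCL10 (4 to 19 counts) overlapped that of CXCL1.

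A fit over the 3 lines together, with line as a term, was chosen after these values were seen. It used 9 libraries against 9 and called 17.9% of all genes. CXCL8 was the 1 member of 7 it called, at -0.72 (SE 0.15, adjusted p = 0.0022), and it was called whichever single library was left out. CXCL1 followed at -0.52 (SE 0.20, adjusted p = 0.0714). Where the counts of the lines were summed by replicate number, which leaves 3 against 3, the CXCL8 value was -0.72 (SE 0.18, adjusted p = 0.0663) and was not called.

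With LPS the same comparison looked different: CXCL8 no longer stood apart, and the CXCR3 ligands had the higher values at 10% CO2. CXCL10 in shNT was 256, 281 and 555 TPM at 5% CO2 and 504, 951 and 787 TPM at 10% (log2 fold change 1.17, SE 0.45, adjusted p = 0.207). In shNR4A2 it was 246, 206 and 569 against 401, 686 and 640 TPM (0.79, SE 0.43, adjusted p = 0.435). In shNR4A3 it was 535, 354 and 847 against 806, 1185 and 1043 TPM (0.84, SE 0.36, adjusted p = 0.293). The ranges overlapped in each line, since replicate 3 was the highest of the 5% CO2 libraries and replicate 1 the lowest of the 10% CO2 libraries in all 3 lines.

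For CXCL11 replicate 3 was again the highest at 5% CO2 in each line, with 10.4, 13.6 and 26.4 TPM in shNT against 22.6, 40.6 and 31.6 at 10% CO2. Its log2 fold changes were 1.04 (SE 0.44), 0.70 (SE 0.52) and 0.57 (SE 0.42) in shNT, shNR4A2 and shNR4A3. Without replicate 3 of the 5% CO2 libraries, edgeR called CXCL11 in shNT (1.56) and both CXCL10 (1.40) and CXCL11 (1.39) in shNR4A2. These calls thus depend on 1 library. CXCL3 in shNT was 207, 162 and 214 TPM at 5% and 234, 222 and 231 TPM at 10% CO2, without overlap (0.37, SE 0.11, adjusted p = 0.0696), and was called without that same library (0.46). CXCL16 in shNT was 2.12, 2.00 and 1.84 against 1.37, 1.00 and 1.12 TPM, also without overlap (-0.64, SE 0.28, adjusted p = 0.164), at 16 to 34 counts. CXCL2 in shNT was 617, 553 and 578 against 544, 487 and 516 TPM, without overlap and lower at 10% CO2, though its fitted value was near 0 (-0.04, SE 0.07). In the knockdown lines CXCL2, CXCL3 and CXCL16 overlapped between CO2 levels.

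CXCL1 was higher in each line at 10% CO2 with LPS by 0.39 (SE 0.20), 0.35 (SE 0.21) and 0.43 (SE 0.29), whereas CXCL8 had values of 0.02, -0.26 and -0.15 and CXCL2 of -0.04, -0.16 and -0.20. Of 7 members edgeR called 0 in each line, with backgrounds of 8.19% in shNT, 0.198% in shNR4A2 and 2.13% in shNR4A3. At an unadjusted p under 0.05, CXCL3 and CXCL16 passed in shNT (2 of 7, background 25.0%) and 0 in either knockdown line. DESeq2 called 1, CXCL3, in shNT (adjusted p = 0.0258, background 4.42% of 40744 genes) and 0 in the others.

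The fit over the 3 lines, again chosen after the values were seen, called 30.8% of all genes with LPS and 1 of 7 members. That member was CXCL10, at 0.93 (SE 0.25, adjusted p = 0.0115). It was called whichever single library was left out, but not after summing the lines by replicate number (0.93, SE 0.34, adjusted p = 0.136). CXCL11 was at 0.76 (SE 0.29, adjusted p = 0.0568), CXCL1 at 0.39 (SE 0.15, adjusted p = 0.057), and CXCL8 at -0.13 (SE 0.14). Among the other lists the CO2 calls were few: with LPS in shNT the NF-kB subunit REL was higher (0.31) and CXCR3 lower (-1.02), and in basal shNR4A3 RELB (-0.59), NFKBIA (-0.40) and IRF1 (-0.63) were lower. None of the 10 interferon axis genes was called by edgeR for CO2 with LPS in any line. The backgrounds there were 8.19% of all genes in shNT, 0.198% in shNR4A2 and 2.13% in shNR4A3.

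**Figure D3:**
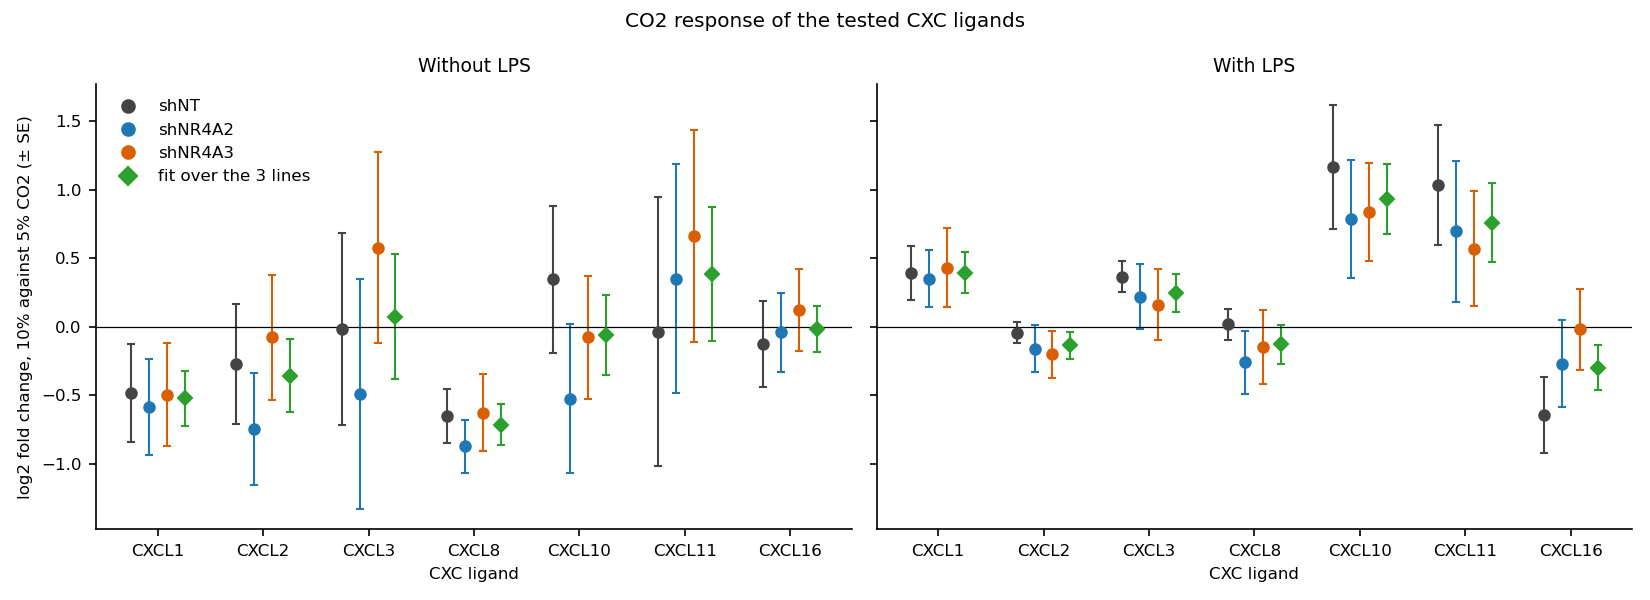
Log2 fold change of 10% against 5% CO2 (± SE) for the 7 tested members without LPS (left) and with LPS (right), each line in colour with 3 libraries against 3 and the fit over the 3 lines as diamonds. CXCL8 lies below 0 in each line without LPS (-0.87 to -0.63), and CXCL10 above 0 in each line with LPS (0.79 to 1.17).

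Whether LPS changed the CO2 response was tested by an interaction term in each line. The differences were 0.67 (SE 0.29), 0.62 (SE 0.35) and 0.49 (SE 0.46) for CXCL8 in shNT, shNR4A2 and shNR4A3, and 0.88 (SE 0.43), 0.95 (SE 0.44) and 0.96 (SE 0.68) for CXCL1. None of the 7 members was called, against 0.0226% of all genes in shNT and 0% in shNR4A2 and in shNR4A3. At an unadjusted p under 0.05, 1 of 7 passed in shNT (CXCL8, background 5.78%), 1 of 7 in shNR4A2 (CXCL1, background 5.10%) and 0 in shNR4A3, and DESeq2 called 0 in each line. An opposite response of CXCL8 or CXCL1 in the presence and absence of LPS is therefore not shown by these tests.

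The knockdown lines were compared with shNT in each condition; both comparisons use the same shNT libraries. CXCL1 with LPS stood higher in either knockdown line. At 10% CO2 it was 857, 692 and 681 TPM in shNT, 1138, 940.1 and 924 in shNR4A2 and 1304, 987 and 954 in shNR4A3. Neither knockdown line overlapped shNT there, at log2 fold changes of 0.40 (SE 0.13, adjusted p = 0.0589) and 0.52 (SE 0.16, adjusted p = 0.0713). At 5% CO2 it was 738, 478 and 641 TPM in shNT, 995, 610.0 and 823 in shNR4A2 and 1058, 575 and 841 in shNR4A3. Replicate 2 was the lowest in each line, the ranges overlapped, and the differences were 0.45 (SE 0.25, adjusted p = 0.358) and 0.48 (SE 0.29, adjusted p = 0.42).

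For shNR4A2 against shNT, 0 of 7 members were called by edgeR in each of the 4 conditions. The backgrounds were 5.69% at 5% CO2, 6.21% at 5% CO2 with LPS, 7.95% at 10% CO2 and 18.9% at 10% CO2 with LPS. At an unadjusted p under 0.05, 2 of 7 passed at 10% CO2 with LPS, CXCL1 and CXCL3 (background 32.2%), and 0 in the other conditions. DESeq2 called CXCL1 there (adjusted p = 0.0168, background 7.09% of 40892 genes) and 0 elsewhere. CXCL8 at 10% CO2 with LPS was 5054, 4433 and 4537 TPM in shNT and 5287, 3983 and 3786 in shNR4A2 (-0.13, SE 0.15), and was called without replicate 1 of shNR4A2 (-0.34). CXCL10 was -0.43 (SE 0.29) in that condition and -0.04 (SE 0.50) at 5% CO2 with LPS.

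For shNR4A3 against shNT, 0 of 7 were called in each condition as well, with backgrounds of 6.19% at 5% CO2, 5.41% at 5% CO2 with LPS, 6.85% at 10% CO2 and 14.5% at 10% CO2 with LPS. At an unadjusted p under 0.05, 1 of 7, CXCL1, passed at 10% CO2 with LPS (background 28.9%) and 0 in the others. DESeq2 called the same gene there (adjusted p = 0.00078, background 5.38% of 41932 genes) and 0 elsewhere. CXCL10 with LPS had higher values than shNT at both CO2 levels, with 0.40 (SE 0.29) at 10% CO2. CXCL11 with LPS was 32.6, 17.5 and 44.5 TPM at 5% CO2 against 10.4, 13.6 and 26.4 in shNT, with overlap. CXCL8 was at -0.17 (SE 0.17) at 10% CO2 with LPS and was called without replicate 1 of shNR4A3 (-0.39).

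At 5% CO2 with LPS same-numbered replicates deviated together between shNT and either knockdown line, and there the fit with the replicate block called 4 of 7 members in each comparison. In shNR4A2 these were CXCL1 (0.44, SE 0.07), CXCL2 (0.20, SE 0.07), CXCL3 (0.37, SE 0.08) and CXCL11 (0.59, SE 0.13), against a background of 24.7% of all genes. In shNR4A3 they were CXCL1 (0.45, SE 0.07), CXCL3 (0.33, SE 0.10), CXCL10 (0.73, SE 0.15) and CXCL11 (0.98, SE 0.22), against 18.7%. All of these values were higher in the knockdown line.

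Fits over both CO2 levels, chosen after the values were seen, set 6 libraries against 6. They called 0 of 7 members in shNR4A2 (backgrounds 21.9% without and 28.3% with LPS) and 0 of 7 in shNR4A3 (17.2% and 27.0%). CXCL1 with LPS came nearest, at 0.42 (SE 0.16, adjusted p = 0.0741) and 0.49 (SE 0.19, adjusted p = 0.0784). DESeq2 called CXCL1 with LPS in both (0.43 and 0.50). In the fits to single conditions, 7 of 10 interferon axis genes were higher in shNR4A3 than in shNT at 5% CO2 with LPS (background 5.41% of all genes in either direction). At 10% CO2 with LPS 6 of 10 were higher (background 14.5%). Among them were IFIT2 (1.27 and 0.99) and ISG15 (0.90 and 0.92). In shNR4A2 IRF1 was the 1 gene of the 10 called at either level (0.37 and 0.44), against backgrounds of 6.21% and 18.9%. CXCL12 at 10% CO2 with LPS was higher in shNR4A2 (1.04) and lower in shNR4A3 (-0.61) than in shNT.

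**Figure D4:**
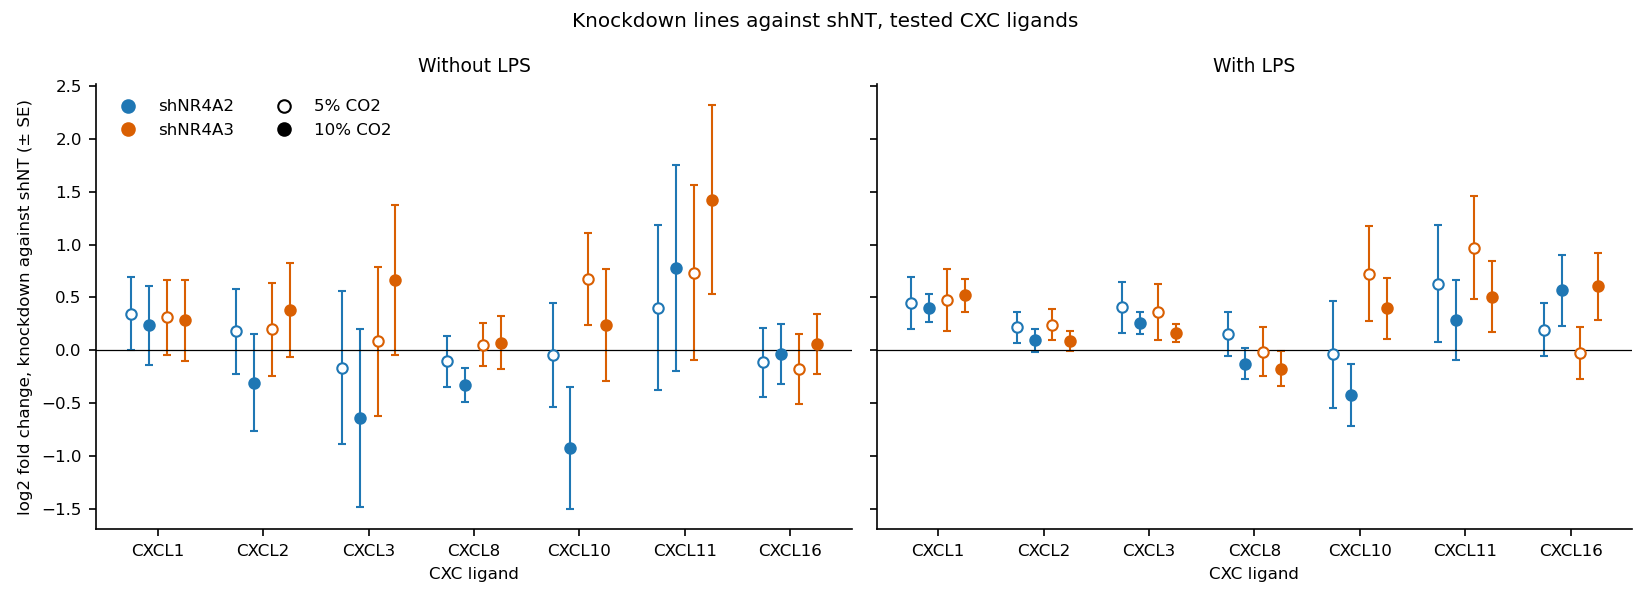
Log2 fold change of each knockdown line against shNT (± SE, 3 libraries against 3) for the 7 tested members without LPS (left) and with LPS (right), with 5% and 10% CO2 as open and filled points. With LPS CXCL1 lies between 0.40 and 0.52 in all 4 comparisons, which share the shNT libraries, and the basal values have wide errors.

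The lines were also compared for the size of their LPS and CO2 responses. For LPS, 0 of 7 members were called in shNR4A2 against shNT at 5% CO2 (background 0%) and 10% CO2 (0.0451%), and 0 in shNR4A3 at 5% (0%) and 10% CO2 (0.198%). For CO2, 0 of 7 were called in the 4 comparisons without and with LPS, where the background was 0% in each. At an unadjusted p under 0.05 none of the members passed in these 8 comparisons, and DESeq2 called 0. The differences for CXCL8 in LPS response ran from -0.25 (SE 0.39) to 0.26 (SE 0.40), and those for CXCL1 from 0.10 (SE 0.52) to 0.25 (SE 0.45).

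The counts of CXCL1 and CXCL10 in the LPS libraries were set against the count of CXCL8 in the same library, a ratio that does not depend on the scaling of libraries. These ratios were chosen after the values were seen, and other members such as CXCL11 also differed from CXCL8 in their CO2 values. CXCL1:CXCL8 in shNT was 0.0709, 0.0531 and 0.0876 at 5% CO2 and 0.0966, 0.0889 and 0.0855 at 10%. In shNR4A2 it was 0.081, 0.0692 and 0.112 against 0.123, 0.135 and 0.139. In shNR4A3 it was 0.096, 0.0816 and 0.116 against 0.141, 0.159 and 0.143. The 5% and 10% CO2 libraries overlapped in shNT and did not in either knockdown line, and at 10% CO2 both knockdown lines lay above shNT without overlap.

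The mean ratio at 10% CO2 was 1.46 times that of shNT in shNR4A2 and 1.64 times in shNR4A3 on the log scale. CXCL10:CXCL8 was 0.0223, 0.0283 and 0.0688 at 5% CO2 and 0.0516, 0.111 and 0.0897 at 10% CO2 in shNT, and was higher at 10% CO2 by a factor of 2.28 there, 2.24 in shNR4A2 and 2.09 in shNR4A3. The ranges overlapped in each line, as replicate 3 at 5% CO2 was high and replicate 1 at 10% CO2 low.

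The ratios were compared by 14 two-sided exact permutation tests, adjusted together. With 3 libraries against 3 an exact permutation test cannot go below p = 0.1, and no single comparison had an adjusted p below 0.175. By exact permutation within lines, CXCL1:CXCL8 was higher at 10% than at 5% CO2 by a factor of 1.45 (p = 0.0005, adjusted p = 0.007, higher in 8 of 9 same-numbered pairs), and CXCL10:CXCL8 by 2.20 (p = 0.00775, adjusted p = 0.0467, 9 of 9). By exact permutation within CO2 levels, CXCL1:CXCL8 was higher than in shNT by a factor of 1.35 in shNR4A2 (p = 0.025, adjusted p = 0.0875, 6 of 6) and 1.52 in shNR4A3 (p = 0.01, adjusted p = 0.0467, 6 of 6). These tests treat same-numbered libraries of different lines as independent and were made on ratios picked from the same data, so their p-values are not independent evidence. The pair counts are a description only. Same-numbered libraries missed the rule for pairing (below) in the CO2 comparisons with LPS of each line. They also missed it for each knockdown line against shNT at 10% CO2 with LPS. The 9 pairs repeat 3 replicate numbers over the lines and are not 9 independent pairs.

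**Figure D5:**
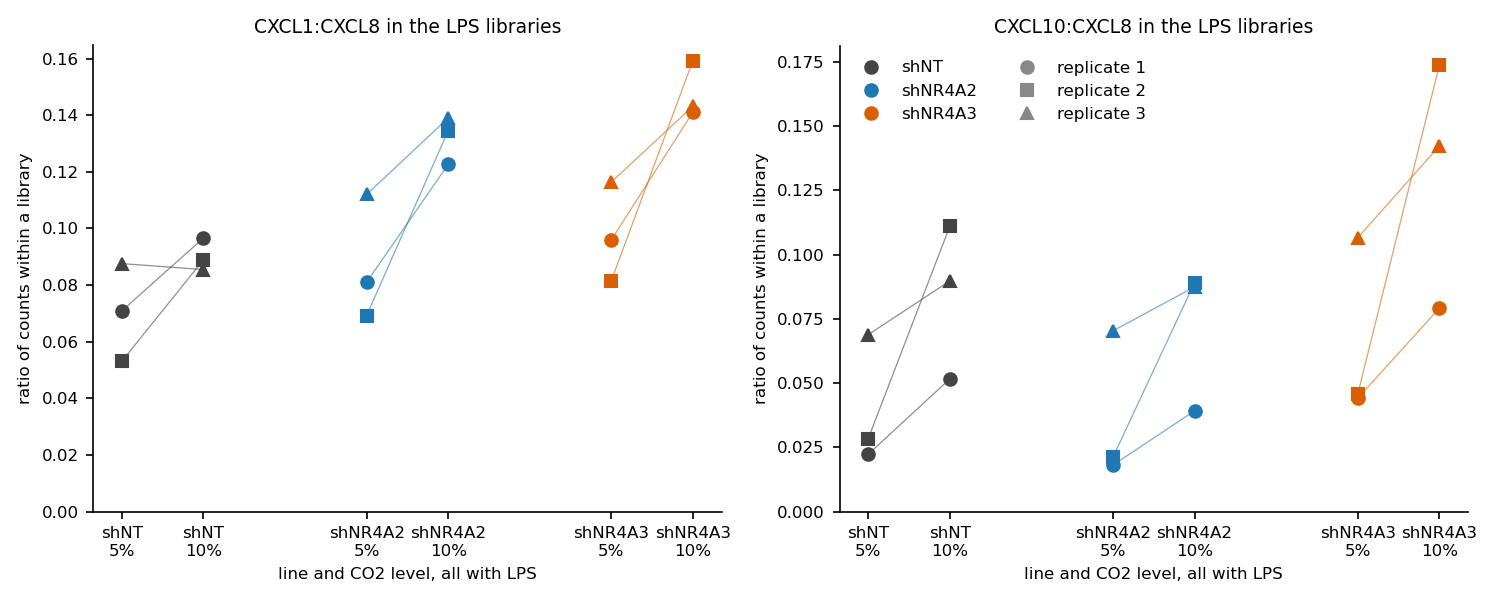
Ratio of the counts of CXCL1 (left) and CXCL10 (right) to those of CXCL8 within each LPS library, by line and CO2 level, with replicates as symbols and lines joining equal replicate numbers. At 10% CO2 the CXCL1 ratio lies between 0.0855 and 0.0966 in shNT and between 0.123 and 0.159 in the knockdown lines.

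The genes whose mean log2 counts, scaled to library size, over the 12 conditions were most like a member's were named by Pearson's r, as a description in which LPS sets most of the pattern and the libraries are shared. The nearest 2 genes for CXCL1 were ZC3H12A (0.9994), an RNase that degrades inflammatory transcripts, and PLEK (0.999). They were NFE2L2 (0.9991) and NFKBIZ (0.9988) for CXCL2, and ENSG00000112096 (0.9991) and NFE2L2 (0.999) for CXCL3. For CXCL8 they were NFKBIA (0.9992) and IER3 (0.9981). For CXCL10 they were PLEKHF2 (0.999) and LRP12 (0.9978), and for CXCL11 IL12B (0.9985) and SHROOM3 (0.9981). CXCL16 had no neighbour above 0.8449. Over the 6 LPS conditions alone the nearest gene was CD44 (0.9976) for CXCL1, SMAP1 (0.9865) for CXCL2 and NDUFC2 (0.9938) for CXCL3. It was POLD3 (0.9911) for CXCL8, PDE8A (0.9985) for CXCL10, ENSG00000233251 (0.9967) for CXCL11 and UCKL1-AS1 (0.9905) for CXCL16. Among the members over these 6 means, r was 0.948 for CXCL1 with CXCL3, 0.934 for CXCL1 with CXCL11, 0.882 for CXCL10 with CXCL11, 0.009 for CXCL1 with CXCL2 and -0.692 for CXCL1 with CXCL8. With so few points these give an order and not a test.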

How the data were processed

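RNA was measured in 36 polyA-selected THP-1 libraries sequenced as paired reads. Per the labels and the methods, adapters and poor bases were removed by the authors in Trimmomatic 0.36, GRCh38 served as the genome for STAR 2.5.2b, and uniquely aligned reads in exons were totalled by featureCounts (Subread 1.5.2); the deposited values are raw counts per gene, not normalized, 1 file per library. The annotation release and the strand setting are not given in the sources used here. Gene symbols came from a reference table and matched 98.1% of 57500 identifiers. CXCL2 and CXCL3 share 29 of the 150-base stretches of their transcripts (2.0% and 1.2%), so a few of their reads may be uncertain.

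Samples were grouped by line, CO2 and LPS from the labels. Genes were kept by filterByExpr (minimum count 10, minimum total 15, 12 conditions), which left 17720. Library sizes were scaled by TMM (factors 0.881 to 1.126), and each comparison was fitted with edgeR 4.0.16 in R 4.3.3 (glmQLFit, robust) on the libraries it concerns, p-values being adjusted by the Benjamini-Hochberg method over all genes in the fit. The SE is the absolute log2 fold change divided by the square root of F. DESeq2 1.42.0, other scalings and filters, 1 fit to all 36 libraries, a replicate block and leaving out each library were alternatives. TPM used the gene lengths in the count files. Total counts limit the precision of members with few basal counts. Replicates of a condition differed by 6.12 to 26.3 times the sampling noise (chi-square per degree of freedom), so no library was a duplicate of another in its condition. Libraries of different conditions were not compared in this way. Replicate numbers were taken as pairing where every same-numbered pair of deviations correlated over 0.1, which held in 7 of 31 comparisons. The fits were tested on simulated data.

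All 8 members, the genes of 5 further lists (other CXC ligands, CXC receptors, NF-kB, interferon axis, proteases), the NR4A genes, and the kept genes most like each member by Pearson's r are named by rule. The members and lists were chosen with earlier results of these data known.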

Additional observations from a re-analysis of the deposited data

Results flagged for a closer look

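CXCR4, the receptor of CXCL12, differed between lines in its LPS response at 10% CO2 by an interaction test (edgeR). The log2 fold change with LPS was lower in shNR4A2 than in shNT by a difference of -1.81 (SE 0.21, adjusted p = 0.000721), and in shNR4A3 by -1.65 (SE 0.17, adjusted p = 0.000112). Mean CXCR4 went from 27.8 ± 1.83 to 29.3 ± 3.04 TPM (SD, n = 3) with LPS in shNT, from 48.8 ± 8.91 to 14.6 ± 2.03 in shNR4A2 and from 59.7 ± 6.69 to 20.1 ± 1.89 in shNR4A3. At 5% CO2 the differences were close to these. They were -1.42 in shNR4A2 (adjusted p = 0.9999) and -1.56 in shNR4A3 (adjusted p = 0.582), and edgeR called neither. Both were called without the filter on low counts and with the replicate block (-1.45 and -1.56). DESeq2 called the difference in shNR4A3 at 5% CO2 (-1.56, adjusted p = 0.00837). Same-numbered deviations in both 5% CO2 comparisons correlated as low as -0.022 over all genes, which misses the bar for pairing. Whether the difference depends on the CO2 level was not tested. Both comparisons share the shNT libraries, and neither 10% CO2 value was called in 1 fit to all 36 libraries (adjusted p = 0.0606 and 0.0747). NFKB2, an NF-kB subunit, rose more with LPS in shNR4A3 than in shNT at 10% CO2, by 0.87 (SE 0.14, adjusted p = 0.0131). NR4A1, the paralogue of the targeted genes, did so by 0.93 (SE 0.18, adjusted p = 0.0315). No member of the chemokine group met such a test, and the causes were not tested.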

How the results depend on the processing

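The 6 members called for LPS stayed called under every alternative run and whichever single library was left out, and no called value changed direction. For CO2 and knockdown the count of members called, 0 of 7 in the single-line fits, moved as follows, and the causes were not tested. For CO2 without LPS it was 1 without the filter in each line, and in shNR4A2 also 1 by DESeq2 and with the replicate block (0 to 1 without single libraries; 1 without 5% CO2 replicate 3). For CO2 with LPS in shNT it was 1 by DESeq2, 1 without the filter and 1 in the fit to all 36 libraries (CXCL10 there), and without single libraries 0 to 2 in shNT and 0 to 2 in shNR4A2. For shNR4A2 at 5% CO2 with LPS it was 4 with the replicate block (0 to 1 without single libraries, 1 without replicate 2 of shNR4A2). At 10% CO2 with LPS it was 1 with library size only, 1 by DESeq2, 2 without the filter, 1 with a 1 CPM filter and 3 with the block (0 to 1; CXCL1 without shNT replicate 1 or shNR4A2 replicate 2, CXCL8 without shNR4A2 replicate 1). For shNR4A3 it was 4 with the block at 5% CO2 with LPS (0 to 1; CXCL2 without shNR4A3 replicate 2), and at 10% CO2 with LPS 1 with library size only, 1 by DESeq2, 1 without the filter and 3 with the block (0 to 1; CXCL1 without shNT replicate 1, CXCL8 without shNR4A3 replicate 1). The fits over the 3 lines called 1 member each; without LPS this became 2 with the block, 0 when summed by number and 1 to 2 without single libraries, and with LPS 3 by DESeq2, 5 with the block, 0 when summed and 1 to 2 without single libraries. Over both CO2 levels with LPS, 0 became 1 by DESeq2, 4 with the replicate block within CO2 level and 0 to 2 without single libraries, with the same counts in shNR4A2 and shNR4A3. The direction was not the same for CXCL10, which this block called lower in shNR4A2 (-0.26, adjusted p = 0.0358) and higher in shNR4A3 (0.57, adjusted p = 0.0219). At 10% CO2 with LPS the replicate block called CXCL1 in shNR4A2 (0.40, adjusted p = 5.898e-08) and in shNR4A3 (0.51, adjusted p = 8.431e-06). It also called CXCL10, as lower in shNR4A2 (-0.40, adjusted p = 3.368e-07) and higher in shNR4A3 (0.44, adjusted p = 0.003507). There the same-numbered deviations correlated at 0.349 to 0.606 and 0.421 to 0.462 over genes of mean CPM 10 or more, but at 0.069 to 0.325 and -0.073 to 0.096 over all genes, which misses the bar for pairing. Of the single log2 fold changes, 52 gained a call and 4 lost it under the alternatives, 27 gained 1 without a library, and 1810 and 2373 kept their side. Levels as RPKM moved by over 1 SD in 79 of 96 means, a change of scale, while the order of the members held in 12 of 12 conditions with TMM scaling and moved in 5 of 36 without a library. Depth limits CXCL5, and the basal levels of CXCL3, CXCL10 and CXCL11.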
